A study of Mus musculus with 4 samples.

Results

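Voltage-gated and related channels set how a neuron fires, and the chromatin state of their genes was examined in the newborn mouse hippocampus. The genes described here are the 134 protein-coding genes of the mouse annotation (mm10) whose symbols start with Kcn, with Scn and a digit, or with Cacna, Cacnb or Cacng, out of 21938 protein-coding genes. They comprise 94 potassium, 14 sodium and 26 calcium channel genes, pore-forming and auxiliary subunits together. They were taken by symbol only, so no measured value entered the choice.

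Open chromatin was measured by ATAC-seq, in which the transposase Tn5 cuts accessible DNA and inserts sequencing adapters, on nuclei of hippocampi dissected at postnatal day 0 (P0). The cKO group (2 libraries) was of genotype Kdm2bEmx1-delta-CxxC, in which Emx1-Cre, active in the dorsal telencephalon, deletes the exon for the CxxC zinc finger that lets KDM2B bind CpG islands. The Ctrl group (2 libraries) was labelled Kdm2bfl/+ or Kdm2bfl/fl, and the labels do not say which applies to a given library. Peak names in the deposited lists carry the string Kf-+ in Ctrl replicate 1 and Kf-f in Ctrl replicate 2, and what these strings stand for is not stated. Cells outside the Emx1 lineage, such as interneurons, microglia and vessel cells, keep KDM2B intact in cKO tissue. The labels do not say whether a library held 1 animal or several, and they also carry a cell field naming neural progenitor cells, whereas titles and protocols name hippocampus.

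Potassium channels bring the membrane back to rest after an action potential, sodium channels carry its upstroke, and calcium channels couple it to transmitter release and to gene expression. Pore-forming subunits conduct the ions, whereas auxiliary subunits steer them to the membrane and tune their gating. Many neuronal channel genes are switched on as progenitors become neurons, and some are kept silent in other cells by the repressor REST. Others serve mainly in muscle, heart, kidney, retina or inner ear.

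A promoter peak was a peak whose summit lay within 2 kb of a transcription start site (TSS) of the gene. The depth of a peak was given as fragments at the summit and as scaled depth, which is that number divided by the mean fragment depth of the genome in the same library. The promoter percentile of a gene was the share of protein-coding genes with a weaker strongest promoter peak in the same library, ordered by the −log10 p of the deposited list, and it was set to 0 where no peak was called. A gene was said to be separated when both cKO values lay above, or both below, both Ctrl values.

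The libraries are called Ctrl 1, Ctrl 2, cKO 1 and cKO 2 by group and replicate number. The 4 peak lists were of unequal length, with 46389 peaks in Ctrl 1, 7037 in Ctrl 2, 21404 in cKO 1 and 44535 in cKO 2. Mean genome depth ran from 1.62 to 3.46 fragments and was highest in Ctrl 2, the shortest list. Of the peaks in Ctrl 2, 60.6% were repeat-masked, meaning that at least 50% of their bases are marked as repeats, against 5.37% to 14.7% in the other lists. All 12 hippocampal and forebrain marker genes (Emx1, Lhx2, Tbr1 and others) had a promoter peak in at least 1 list, but none had one in Ctrl 2. None of the 5 microglia markers and none of the 4 markers of other tissues (Alb, Ins2, Krt5, Myh6) had a promoter peak in any list. Of 6 interneuron markers, 4 had a promoter peak in Ctrl 1, 0 in Ctrl 2, 1 in cKO 1 and 2 in cKO 2. Of 4 oligodendrocyte lineage markers it was 2, 0, 0 and 1, and of 5 vessel markers 2, 0, 2 and 0, in the same order. Promoter peaks also lay at 2 of 3 markers of choroid plexus and ciliated cells (Foxj1 and Ttr, each in Ctrl 1, cKO 1 and cKO 2). The part of these other cells in the channel results was not tested. Because Ctrl 2 stands apart, differences between the groups are also given without it.

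The sequences under some of the strong peaks, which are not in every case the strongest, show the kinds of DNA involved. Each is the 200 bases around the summit in Ctrl 1 (GRCm38), read 5′ to 3′ on the strand of the gene, with every CG dinucleotide in capitals, since CG-rich DNA is what a CxxC zinc finger binds. The first 2 are CpG island promoters, of Kcnab2 (chr4:152477531-152477730, minus strand) and Scn3b (chr9:40268994-40269193, plus strand). The third is the promoter of Scn2a without a CpG island (chr2:65668477-65668676, plus strand), and the last 2 are the intronic regions that were deepest in Ctrl 1 among those more than 2 kb from any TSS, in Kcnq5 (chr1:21411589-21411788, minus strand) and Kcnq3 (chr15:66239310-66239509, minus strand).
Kcnab2 promoter: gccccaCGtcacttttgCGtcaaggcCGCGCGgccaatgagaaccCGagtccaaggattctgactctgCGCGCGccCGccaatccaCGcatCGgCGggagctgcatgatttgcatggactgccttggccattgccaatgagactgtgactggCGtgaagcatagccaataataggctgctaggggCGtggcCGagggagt
Scn3b promoter: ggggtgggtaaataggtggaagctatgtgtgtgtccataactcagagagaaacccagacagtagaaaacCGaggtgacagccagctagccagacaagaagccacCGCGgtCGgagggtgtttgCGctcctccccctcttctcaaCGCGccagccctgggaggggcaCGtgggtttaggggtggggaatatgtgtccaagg
Scn2a promoter: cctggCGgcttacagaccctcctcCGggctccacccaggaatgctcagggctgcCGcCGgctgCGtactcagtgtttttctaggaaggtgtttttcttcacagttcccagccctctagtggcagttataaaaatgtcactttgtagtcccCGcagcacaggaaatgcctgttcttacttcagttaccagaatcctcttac
Kcnq5 intron: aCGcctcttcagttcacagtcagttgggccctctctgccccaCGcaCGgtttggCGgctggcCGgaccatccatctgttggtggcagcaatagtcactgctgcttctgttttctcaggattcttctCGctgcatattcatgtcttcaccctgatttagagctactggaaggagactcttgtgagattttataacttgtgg
Kcnq3 intron: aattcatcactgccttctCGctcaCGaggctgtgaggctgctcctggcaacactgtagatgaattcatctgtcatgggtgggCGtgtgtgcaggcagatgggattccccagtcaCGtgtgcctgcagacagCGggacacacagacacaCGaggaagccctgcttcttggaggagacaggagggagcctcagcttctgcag
The Kcnab2 window held 16 CG dinucleotides and the Scn3b window 8. The Scn2a, Kcnq5 and Kcnq3 windows held 6 each. Over all 74 channel promoter peaks of Ctrl 1, the median was 13 CG dinucleotides per window (range 2 to 29), against a median of 17 over the promoter peaks of all protein-coding genes. Channel promoter windows of genes with a CpG island had a median of 15.5, those without an island 6.5, and the 252 intronic or exonic peaks away from any TSS that were not repeat-masked a median of 2.

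A channel gene had a promoter peak about as often as any protein-coding gene in Ctrl 1 and cKO 2, less often in cKO 1, and never in Ctrl 2. In bulk tissue, fewer cells of a type and less open chromatin per cell cannot be told apart. In Ctrl 1, 74 channel genes (55.2%) had a promoter peak, against 58.0% of all protein-coding genes. In cKO 2 it was 71 (53.0%, against 55.9%), and in cKO 1 it was 38 (28.4%, against 40.3%). In Ctrl 2 it was 0 of 134, where 8.27% of all protein-coding genes had a peak. Averaged by group, 54.5 ± 23.3 genes had one in cKO and 37.0 ± 52.3 in Ctrl (SD, n = 2 each), so the difference of 17.5 genes was smaller than the SD within either group. Among the 79 channel genes with a peak in at least 1 list, the median percentile was 53.7 in Ctrl 1, 0 in Ctrl 2, 0 in cKO 1 and 53.8 in cKO 2, against 69.9, 0, 69.9 and 69.9 over all such protein-coding genes. That background median is 69.9 by construction in any list where most of those protein-coding genes have a peak. Without Ctrl 2 the difference between the cKO mean and the remaining Ctrl library was -19.5 genes.

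Across lists, 37 channel genes had a promoter peak in 3 lists, 30 in 2 and 12 in 1, while 55 had none in any. As shares these were 27.6%, 22.4%, 8.96% and 41.0%, against 31.9%, 14.4%, 5.83% and 39.8% of all protein-coding genes, of which a further 8.02% had one in all 4 lists. The 79 genes with a peak in at least 1 list were 59.0% of the channel genes, against 60.2% of all protein-coding genes. Of the 30 genes in 2 lists, 29 were found in Ctrl 1 and cKO 2, the pair of longest lists, and the exception was Kcnmb1 (Ctrl 1 and cKO 1), a beta subunit of the large-conductance calcium-activated channel. No channel promoter was called in cKO 1 and cKO 2 while being absent from both Ctrl lists, a pattern that 0.205% of all 13196 genes with a peak had. The reverse, in both Ctrl lists and no cKO list, held for no channel promoter either, against 0.0152%.

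**Figure D1:**
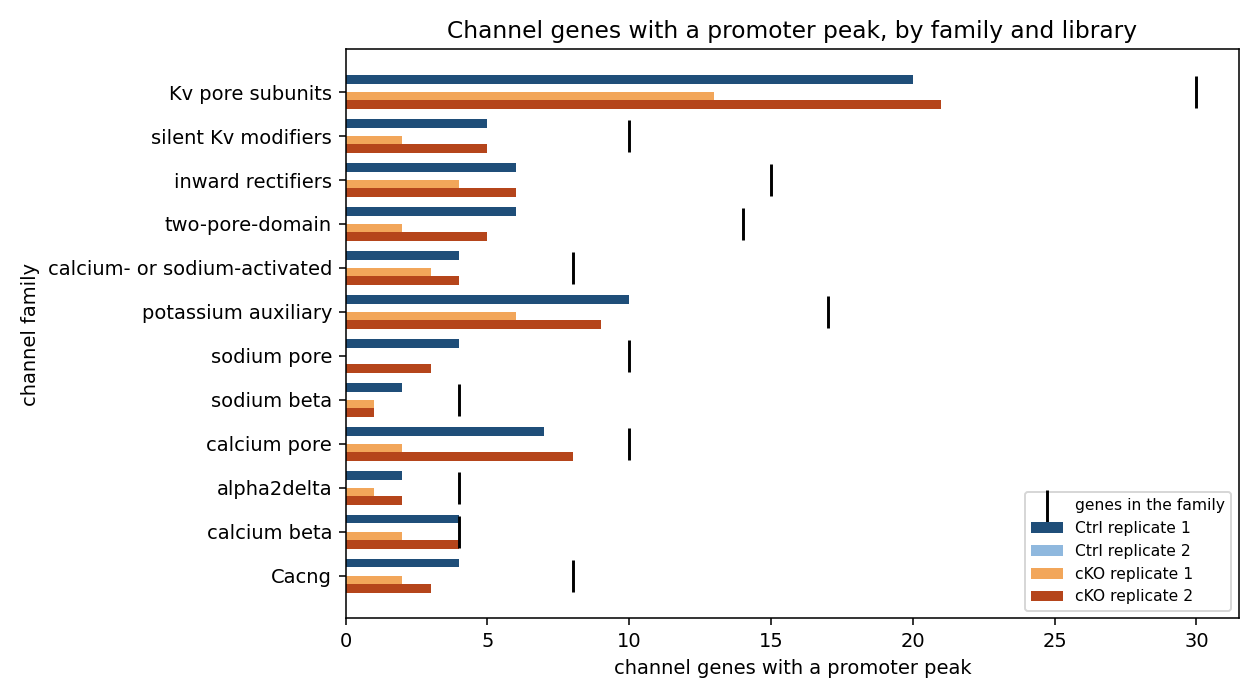
Number of channel genes with a promoter peak (horizontal axis) in each channel family (vertical axis), with 1 bar per library and a black mark at the size of the family. The bars of Ctrl 1 and cKO 2 differ by at most 1 gene in each family, cKO 1 has a shorter bar than Ctrl 1 in each, and Ctrl 2 has none; of the 30 Kv pore subunits, 20, 0, 13 and 21 had a promoter peak in Ctrl 1, Ctrl 2, cKO 1 and cKO 2.

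CpG islands divided the channel genes. An island overlapped a promoter of 90 of the 134 channel genes (67.2%), against 57.7% of all protein-coding genes. Of these 90, 64 (71.1%) had a promoter peak in at least 1 list, whereas 89.3% of all island genes did. Of the 44 channel genes without an island, 15 (34.1%) had a promoter peak, whereas 20.3% of all such protein-coding genes did. Channel genes with an island had a peak less often than island genes at large, and those without an island more often, in each of Ctrl 1, cKO 1 and cKO 2. In Ctrl 1 the shares for island genes were 66.7% and 87.1%, and for genes without an island 31.8% and 18.3%. These shares were compared as descriptions, without a test.

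**Figure D2:**
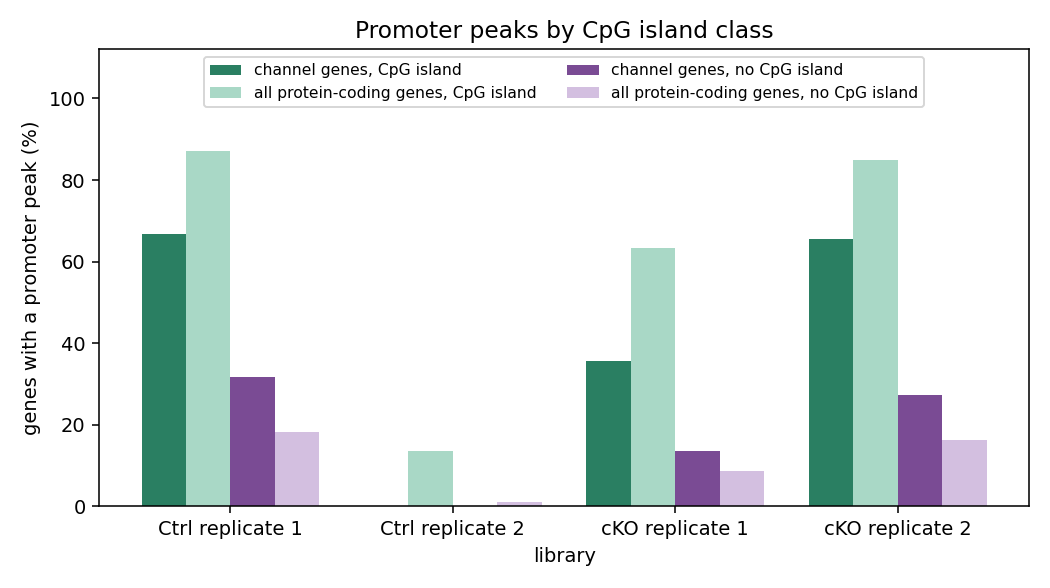
Percentage of genes with a promoter peak (vertical axis) in each library (horizontal axis), for channel genes and for all protein-coding genes, with and without a CpG island at a promoter. Channel genes with an island lie below island genes at large (66.7% against 87.1% in Ctrl 1), and channel genes without an island lie above their counterparts (31.8% against 18.3%) in every library but Ctrl 2, where channel genes are at 0.

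The promoter peaks of channel genes were also shallow. Among genes with a peak, median scaled depth was 12.6 in channel genes and 23.4 in all protein-coding genes in Ctrl 1. It was 6.99 and 11.6 in cKO 1, and 11.1 and 19.9 in cKO 2. Channel promoters therefore lay nearer to the calling limit of each list, which was a scaled depth of 4.32 in Ctrl 1, 4.34 in cKO 1 and 4.43 in cKO 2.

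The voltage-gated potassium channel pores (Kcna, Kcnb, Kcnc, Kcnd, Kcnq and Kcnh) were the largest family, and 22 of the 30 had a promoter peak in at least 1 list. Kcnh8, an ether-a-go-go-like channel, had 52 fragments in Ctrl 1, 27 in cKO 1 and 62 in cKO 2, a scaled depth of 32.1, 13.0 and 34.3, so Ctrl 1 lay between the cKO libraries. Its percentiles were 79.0 in Ctrl 1, 83.5 in cKO 1 and 86.9 in cKO 2, and on that scale both cKO values lay above both Ctrl values. Its summit lay about 1.6 kb from the TSS and 1530 to 1560 bases from that of the neighbouring transcript Gm27217. The neuronal M-current genes Kcnq3 and Kcnq5, whose channels restrain repetitive firing, had promoter peaks in the same 3 lists. Kcnq3 was the deeper of these, with 38 fragments in Ctrl 1, 18 in cKO 1 and 31 in cKO 2. The A-type channel genes Kcnd2 and Kcnd3 were also in 3 lists, at 25, 13 and 19 fragments for Kcnd2 and 19, 13 and 19 for Kcnd3 in the same order. The Kcnd2 peak of Ctrl 1 lay 178 to 191 bases from those of the cKO lists without overlapping them, so these depths were not taken at the same position. The Shaker-type genes divided, with Kcna2 and Kcna3 in 3 lists, Kcna1 and Kcna4 in 2, Kcna6 in 1, and Kcna5, Kcna7 and Kcna10 in none.

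Imprinted Kcnq1, a potassium channel of heart and epithelia, and imprinted Kcnk9, a two-pore-domain leak channel, had no promoter peak in any list. Within Kcnq1 a peak lay 9 to 125 bases from the TSS of its antisense transcript Kcnq1ot1, at a scaled depth of 32.1 in Ctrl 1, 7.71 in cKO 1 and 22.7 in cKO 2. An intronic region of Kcnq1 (chr7:143165802-143166190) had 14.2, 10.1 and 12.7 in the same order, so it was the deeper of the pair in cKO 1 alone.

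The silent modifiers (Kcnf, Kcng, Kcns, Kcnv), which form channels only together with other pores, all had a CpG island, and 6 of the 10 had a promoter peak. Kcnv1 had the highest mean percentile of these, at 23, 12 and 14 fragments in Ctrl 1, cKO 1 and cKO 2, although Kcnf1 had 24 in Ctrl 1. Among the 15 inward rectifiers, which hold the resting potential, 6 had a promoter peak. Kcnj10, the potassium-buffering channel of astrocytes and other glia, had 47 fragments in Ctrl 1, 18 in cKO 1 and 38 in cKO 2. Kcnj6 and Kcnj3, which form G-protein-gated channels, were in the same 3 lists, whereas their partners Kcnj9 and Kcnj5 had no promoter peak.

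Kcnj2, a strong inward rectifier whose promoter has no CpG island, had the lowest cKO depth relative to Ctrl 1 among the genes in 3 lists. It had 48 fragments in Ctrl 1, 13 in cKO 1 and 24 in cKO 2, a scaled depth of 29.6, 6.27 and 13.3. The ratios to Ctrl 1 were 0.212 and 0.449, the lowest of the 37 genes in either cKO library. With no peak in Ctrl 2, its groups overlapped.

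Of the 14 two-pore-domain channels, which carry background potassium leak, 6 had a promoter peak. Kcnk5 had the highest mean percentile (48.7), with 27, 13 and 26 fragments in Ctrl 1, cKO 1 and cKO 2. Kcnk10 followed at 47.8 but was the deeper in each of these lists, with 33, 19 and 29 fragments. Of the 8 genes grouped with the channels opened by intracellular calcium or sodium, 4 had a promoter peak, and 3 of these were strong. Kcnn2, a small-conductance calcium-activated channel of hippocampal neurons, had 73, 53 and 64 fragments in the same order. Kcnt2, a sodium-activated channel, had 39, 20 and 26, and Kcnn3 had 41, 12 and 39. Both Kcnt2 and Kcnn3 lacked a CpG island at the promoter. The Kcnn2 summit lay inside the gene, 738 bases from a TSS in Ctrl 1 but 1711 in cKO 1 and 1682 in cKO 2. Its peaks overlapped between these lists, but the depths were not taken at the same position.

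Among 17 potassium auxiliary genes, 11 had a promoter peak. Kcnab2, a cytoplasmic beta subunit of Shaker-type channels, had the deepest promoter of all channel genes in Ctrl 1. Its peak rested on 86 fragments there, on 28 in cKO 1 and on 92 in cKO 2, a scaled depth of 53.0, 13.5 and 50.9. The depth in cKO 2 was thus near that in Ctrl 1, and the depth in cKO 1 was 0.255 times it. Kcnip3 and Kcnip4, calcium-binding partners of A-type channels, were in 3 lists, while Kcnip1 had no promoter peak. The Kcnip4 peak of Ctrl 1 was at another TSS, 238 kb from those of the cKO lists.

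**Figure D3:**
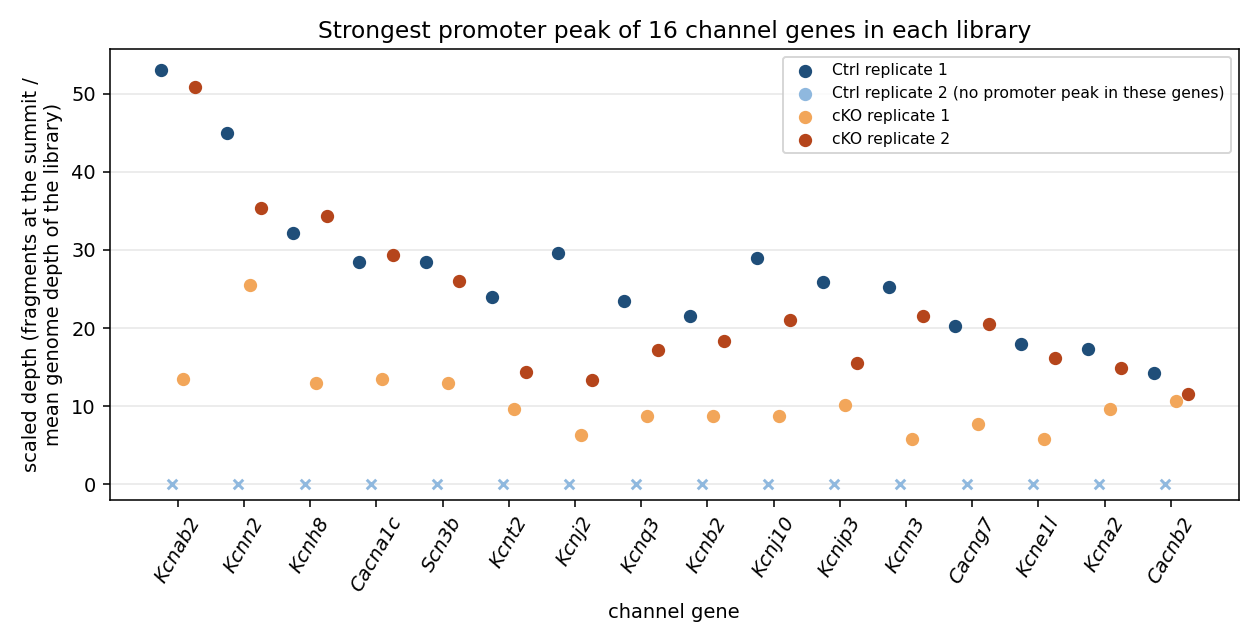
Scaled depth (fragments at the summit divided by mean genome depth, vertical axis) of the strongest promoter peak in each library, for 16 channel genes with a high mean promoter percentile (horizontal axis); a cross at 0 marks a library without a peak. In each of these genes cKO 1 lies below Ctrl 1 and below cKO 2, and Ctrl 2 has no peak.

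Sodium channel pores had promoter peaks in few libraries. Of the 10 genes, 4 had a promoter peak in Ctrl 1, 3 in cKO 2 and none in cKO 1. Only 3 of the 10 had a CpG island. Over all protein-coding genes without an island, 18.3% had a promoter peak in Ctrl 1, 16.2% in cKO 2 and 8.66% in cKO 1. Scn2a, a main sodium channel of excitatory neurons, had 48 fragments in Ctrl 1 and 41 in cKO 2, and its percentiles of 81.6 and 80.3 were the highest of the family. The summit of the Scn2a peak in Ctrl 1 lay 47.8 kb inside the gene from its first annotated start and 189 bases from an internal TSS, and the promoter lacked a CpG island. No Scn2a peak was called in cKO 1, where promoter peaks of channel genes rested on 10 to 53 fragments.

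Scn2a lies in the sodium channel cluster of chromosome 2 in the order Scn3a, Scn2a, Scn1a, Scn9a and Scn7a. Its neighbour Scn3a, the sodium channel of embryonic brain, had 25 fragments in Ctrl 1 and 15 in cKO 2. Scn1a, a channel of fast-spiking interneurons, had 15 and 21. Scn9a, a pain-pathway channel, had 10 fragments in Ctrl 1 alone, and Scn7a had no promoter peak. Scn10a and Scn11a on chromosome 9, known from sensory ganglia, had no promoter peak in any list, and neither did Scn8a or the muscle gene Scn4a.

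Of the 4 sodium beta subunits, which are adhesion-type partners of the pore, Scn3b stood above the rest. It had 46 fragments in Ctrl 1, 27 in cKO 1 and 47 in cKO 2. Its percentiles were 74.4, 80.0 and 77.2, so both cKO values exceeded the Ctrl values. In scaled depth (28.4, 13.0 and 26.0) both cKO values lay below Ctrl 1. Scn2b had 8 fragments in Ctrl 1, and Scn4b had no promoter peak.

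Of the 10 calcium channel pores, 8 had a promoter peak in at least 1 list. Cacna1c, an L-type channel that links activity to transcription in neurons and drives the heartbeat, had 46 fragments in Ctrl 1, 28 in cKO 1 and 53 in cKO 2. Its scaled depths of 28.4, 13.5 and 29.3 put Ctrl 1 between the cKO libraries. These Cacna1c peaks lay inside the gene, with summits 562 to 704 bases from an internal TSS. Cacna1e, an R-type pore, was the other in 3 lists, at 16, 11 and 13 fragments. The presynaptic pores Cacna1a (P/Q-type) and Cacna1b (N-type) and the T-type pores Cacna1g and Cacna1h had peaks in Ctrl 1 and cKO 2. Cacna1a had 12 fragments in the former and 26 in the latter, whereas Cacna1g had 27 and 15, so the same libraries ranked in opposite order at these genes. Cacna1d and Cacna1i had none.

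The peaks of the retinal gene Cacna1f and the skeletal muscle gene Cacna1s each lay nearer to the TSS of another gene. For Cacna1f it was Gm36995, whose TSS lay 4 to 12 bases from the summit, and for Cacna1s it was Ascl5. The same held in at least 1 list for 13 channel genes in all, among them Kcnq3, Kcnd3, Kcnn2 and Kcnh8.

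All 4 calcium channel beta subunits, which carry the pore to the membrane, had a promoter peak and an island. Cacnb2 had 23 fragments in Ctrl 1, 22 in cKO 1 and 21 in cKO 2, so its scaled depths of 14.2, 10.6 and 11.6 lay close together. Cacnb4 had 24 fragments in Ctrl 1 and 38 in cKO 2 at overlapping peaks, and its depth in cKO 2 was 1.42 times that in Ctrl 1, the highest ratio of the 37 genes in 3 lists. In cKO 1 its promoter peak (11 fragments) was at another TSS, 117 kb away. Of the alpha2delta genes, extracellular partners of the pore, Cacna2d1 was in 3 lists and Cacna2d3 in 2. Among the 8 Cacng genes, several of which regulate AMPA receptors and not calcium channels, Cacng7 and Cacng2 were in 3 lists.

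Lists of channels by tissue set these families in context. Of 42 channels known from brain neurons and glia, 36 (85.7%) had a promoter peak in at least 1 list, against 60.2% of all protein-coding genes, and those without one included Kcnip1, Kcnk9, Kcnt1, Scn4b and Scn8a. Of 22 channels best known from muscle, heart, sensory ganglia, retina, inner ear, kidney or sperm, 4 (18.2%) had one: Cacna1f, Cacna1s, Kcne1 and Kcnmb1. Islands lay at 34 of the 42 promoters in the first list and at 7 of the 22 in the second. The lists also differed among genes of the same island class. Without an island, Scn1a, Scn2a, Scn3a, Scn2b, Kcna4, Kcnn3, Cacna1e and Cacng8 of the first list each had a promoter peak. With an island, Cacna1d, Cacng6, Kcna7, Kcnq1 and Kcnv2 of the second list had none, whereas Cacna1s had one nearer to Ascl5. The parts of tissue and CpG content were not tested. Of 9 channels linked to REST in general knowledge, 8 had a promoter peak in Ctrl 1 and in cKO 2, and 2 in cKO 1. Of these 9 genes, 7 had an island, and island genes at large had a promoter peak in 87.1%, 84.9% and 63.4% of cases in Ctrl 1, cKO 2 and cKO 1.

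In the comparison of cKO with Ctrl, 19 of the 79 channel genes with a promoter peak had a higher percentile in both cKO libraries than in both Ctrl libraries (24.1%), and none was lower in both. Over all 13196 protein-coding genes with a promoter peak, 20.5% were higher and 2.80% were lower, so the channel share of higher genes was near that of the background. For 2 libraries against 2, the exact two-sided permutation test cannot give a p below 0.33, which all 19 genes had, and their Benjamini-Hochberg adjusted p was 1.0. Every channel gene stood at 0 in Ctrl 2, so being higher required only that both cKO libraries exceed Ctrl 1. For the same reason no channel gene could be lower than both Ctrl values, so the absence of lower genes carries no information. Without Ctrl 2 the count was again 19 higher, now with 23 lower (29.1%), against 23.8% and 36.6% of protein-coding genes.

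Among the separated genes, large differences in mean percentile (cKO minus Ctrl) were those of Kcnh8 (45.7), Cacna1c (44.7), Scn3b (41.4), Cacnb2 (39.6), Kcna3 (38.5), Cacnb4 (38.0) and Cacng7 (36.8). Each of these rested largely on Ctrl 2, where the genes stood at 0. Without Ctrl 2 the differences were 6.17 for Kcnh8, 5.72 for Cacna1c, 4.2 for Scn3b, 10.6 for Cacnb2, 10.7 for Kcna3, 8.38 for Cacnb4 and 5.39 for Cacng7. All 19 separated genes had a CpG island, as did 89.1% of the 2703 protein-coding genes that were higher in both cKO libraries and 32 of the 38 channel genes with a promoter peak in cKO 1. In 2 of the 19, Cacnb4 and Kcnh7, the peak of cKO 1 did not overlap that of Ctrl 1. In cKO 1, a gene with any promoter peak had a percentile of at least 59.7, because fewer genes had one there. By scaled depth, all 19 were lower in cKO 1 than in Ctrl 1, and 12 were also lower in cKO 2, so no channel gene was separated on that scale.

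Depth itself was compared over the 37 channel genes with a promoter peak in Ctrl 1 and both cKO lists. Median scaled depth was 16 in Ctrl 1, 7.23 in cKO 1 and 13.3 in cKO 2. All 37 were lower in cKO 1 than in Ctrl 1, and 30 (81.1%) were lower in both cKO libraries, against 82.8% of the 8730 protein-coding genes with such peaks. None was higher in both, against 0.149%. In 4 of the 37 (Cacnb4, Kcnd2, Kcnh7 and Kcnip4) the peaks did not overlap in all 3 lists, and of the other 33, 28 (84.8%) were lower in both cKO libraries. The median ratio to Ctrl 1 was 0.45 in cKO 1 and 0.865 in cKO 2, against 0.37 and 0.84 over all those protein-coding genes. By these medians, the cKO libraries differed more from each other than cKO 2 did from Ctrl 1.

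**Figure D4:**
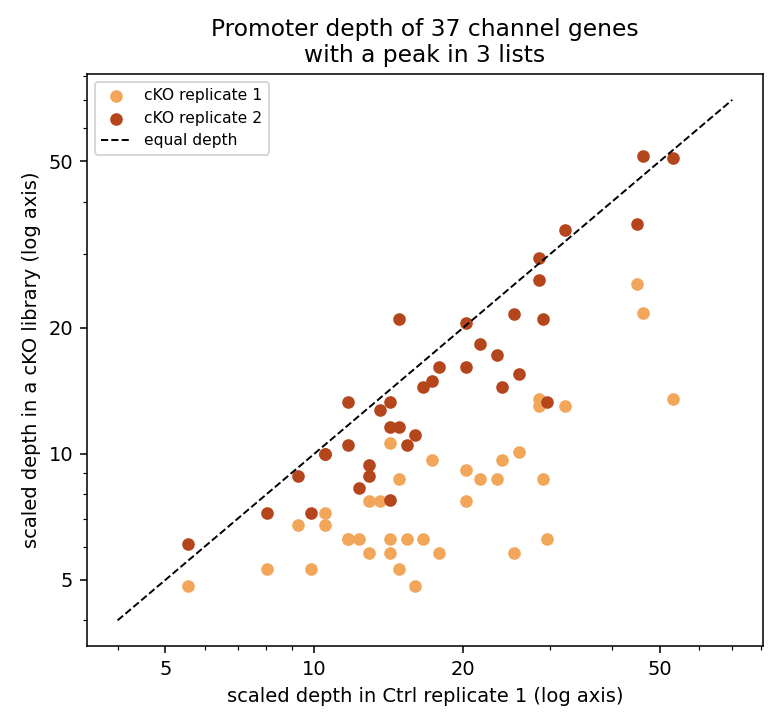
Scaled promoter depth in each cKO library (vertical log axis) against Ctrl 1 (horizontal log axis) for the 37 channel genes with a promoter peak in these 3 lists; the dashed line marks equal depth. All points of cKO 1 and 30 of the 37 points of cKO 2 lie below the line.

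Many channel genes are long, with a median length of 42.5 kb against 17.4 kb for all protein-coding genes, and their bodies held more peaks than their promoters. The gene bodies held 341 peaks in Ctrl 1, 31 in Ctrl 2, 129 in cKO 1 and 322 in cKO 2. Averaged by group there were 225.5 ± 136 such peaks in cKO and 186.0 ± 219 in Ctrl (SD, n = 2 each), a difference smaller than either SD, and without Ctrl 2 the difference was -115.5 peaks. Of these peaks, 265, 30, 93 and 254 were distal, meaning more than 2 kb from every TSS of any gene. Per megabase of gene that was 16, 1.82, 5.63 and 15.4, slightly above the 13.7, 1.55, 4.68 and 12.9 of all protein-coding genes in the same order.

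Merged over the lists, the distal peaks formed 350 regions in 70 channel genes, 334 in introns and 16 at exons. Of the 350, 192 were found in at least 2 lists and 83 in at least 3. The most common combination of lists was Ctrl 1 with cKO 2, at 98 regions. A single region, in Kcnip1 (chr11:33821230-33821664), was in both cKO lists and no Ctrl list, and a single region, in Scn8a (chr15:100898612-100899271), was in both Ctrl lists and no cKO list. Each is 0.286% of the 350, against 0.837% and 0.316% of the 19002 distal regions of all protein-coding genes. Of the 30 regions with a peak in Ctrl 2, 19 were repeat-masked.

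The genes with the most regions in at least 2 lists were Cacna2d3 (16), Kcnip1 (10), Kcnip4 (10), Cacna1c (9), Kcnd3 (8), Kcnq3 (8), Cacna1a, Cacna2d1, Cacnb4 and Kcnn3 (7 each). Cacna2d3 and Kcnip4 are also very long genes, of 817 and 1135.4 kb. Per 100 kb, Kcnn3 held 4.52 such regions, Kcnd3 3.6 and Cacna2d3 1.96. Kcnip1, which had no promoter peak and overlaps Kcnmb1, carried open regions inside the gene, as did Cacna1d with 5 in at least 2 lists. Kcnd3, an A-type channel of dendrites, had 7 regions in 3 lists between 69.0 and 202 kb from the start of the gene.

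**Figure D5:**
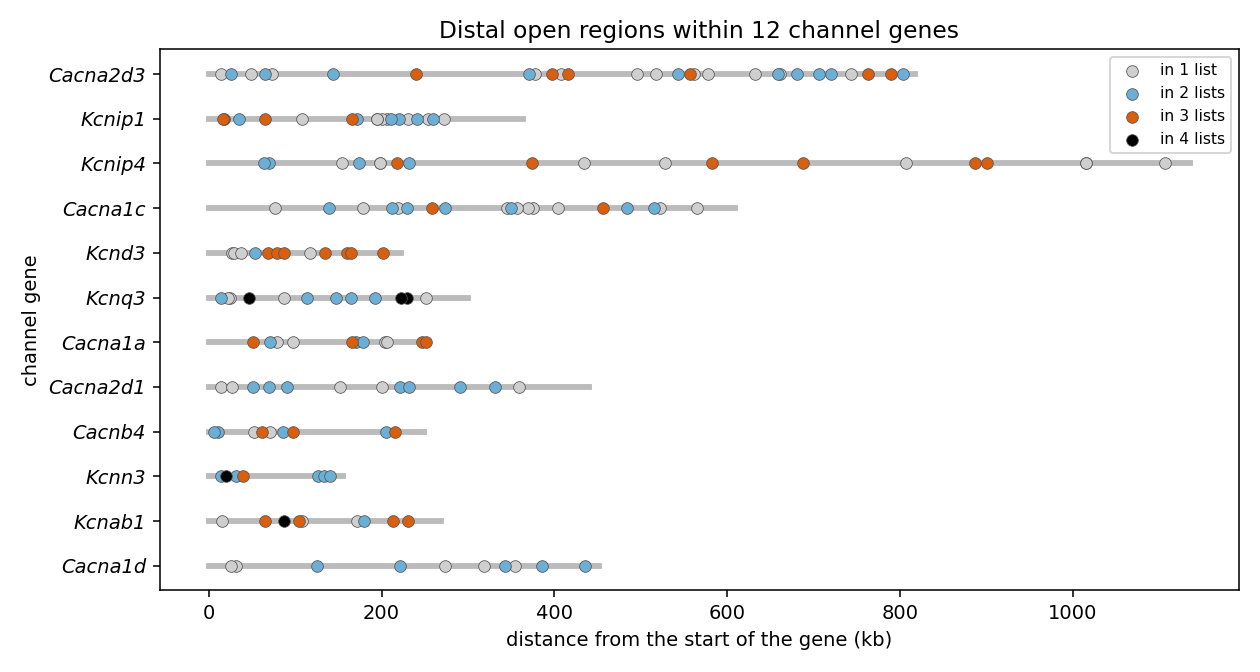
Distal open regions within the 12 channel genes with the most regions in at least 2 lists (vertical axis), by distance from the start of the gene in kb (horizontal axis); grey bars show gene length and the colour of a point the number of lists. The 7 regions of Kcnd3 in 3 lists lie between 69.0 and 202 kb from its start, and the 6 of Cacna2d3 between 240 and 789 kb.

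The deepest distal region in Ctrl 1 and in cKO 1 lay in an intron of Kcnq5 (chr1:21411302-21412169), and its summit sequence is given above. It had 101 fragments in Ctrl 1, 19 in Ctrl 2, 53 in cKO 1 and 97 in cKO 2. In scaled depth these were 62.3, 5.48, 25.5 and 53.7, so cKO 1 and cKO 2 fell within the range spanned by the Ctrl libraries. This region was deeper than the gene's own promoter, which had a scaled depth of 12.9 in Ctrl 1.

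The intronic region of Kcnq3 (chr15:66239089-66240158), 47.0 kb from the gene start, had a scaled depth of 52.4 in Ctrl 1, 4.62 in Ctrl 2, 15.4 in cKO 1 and 62.5 in cKO 2, where it was the deepest distal region. That of Kcnn3 (chr3:89539747-89540508) had 36.4, 5.77, 14.0 and 33.2 in the same order. In both, the groups overlapped. Of the 9 distal regions of channel genes found in all 4 lists, those of Kcnq5, Kcnq3 and Kcnn3 given here were the 3 that were not repeat-masked. The other 6 (in Kcnab1, Kcnd2, Kcnh1, Kcnmb2 and 2 in Kcnq3) were repeat-masked. Among those 6, the repeat-masked region of Kcnq3 at chr15:66062832-66065619 was the deepest distal region in Ctrl 2, with 20.5 there against 17.9, 18.3 and 19.9 in Ctrl 1, cKO 1 and cKO 2. The Kcnab1 region (chr3:65195503-65197455) had 16.5 in Ctrl 2 against 7.4, 11.1 and 17.7.

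Exonic regions were led by Cacna1a (chr8:84639185-84639901), near the end of the gene at 251 kb from its start, with a scaled depth of 32.7 in Ctrl 1, 14.9 in cKO 1 and 26.6 in cKO 2. Within the sodium channels, Scn8a, which had no promoter peak, held 3 regions in at least 2 lists. The strongest of these (chr15:100909679-100910541) had 19, 16 and 34 fragments in Ctrl 1, cKO 1 and cKO 2.

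Over the 79 distal regions with a peak in Ctrl 1 and both cKO lists, median scaled depth was 15.4, 7.71 and 16.1 in that order. Over the 4043 such regions of all protein-coding genes it was 16.6, 8.2 and 16.6. Of the 79 regions, 74 (93.7%) were lower in cKO 1 than in Ctrl 1, against 91.8% of the 4043, while 45 (57.0%) were higher in cKO 2 than in Ctrl 1, against 52.1%. In both cKO libraries, 33 (41.8%) were lower, against 46.0%, and 5 (6.33%) were higher, against 6.78%, so the channel shares were near the background.

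Short motifs were searched on both strands in the 300-base promoters of RefSeq (GRCm38.p6, 250 bases before to 50 after a start), which matched 99 of the 134 channel genes with 135 promoters. GGGCGG, the core bound by SP factors, was in 45.2% of channel promoters and 35.7% of all 32851 promoters. CACGTG, an E-box, was in 5.19% and 7.15%. TGACGTCA, the full cAMP response element, was in no channel promoter and in 1.79% of all. Of the REST half-sites, TTCAGCACC was in 1 channel promoter (Kcnh6) and 0.371% of all, and GGACAGC in 10.4% and 6.56%. Under the promoter peaks themselves, in 200-base summit windows of Ctrl 1, GGGCGG was less common in channel genes (39.2%) than in all protein-coding genes (55.9%). TTCAGCACC occurred in 1 of 74 channel windows (1.35%), that of Cacng2, against 0.306% of the windows of all protein-coding genes. GGACAGC occurred in 9.46% of channel windows, that of Cacng2 among them, against 5.45%.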

How the data were processed

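Peak lists of 4 libraries (2 cKO, 2 Ctrl; grouped by sample title) were analysed. As the study's methods describe, the authors used Cutadapt for trimming and Bowtie2 for alignment to mm10, discarded blacklisted, mitochondrial and duplicate reads, applied the Tn5 offset and called peaks with MACS2 2.2.7.1, for which no control library is named. One list per library was deposited, and each deposited list gives a score (not used), a fold enrichment ratio, −log10 p-values and −log10 q-values of the authors' run, and the summit offset. These lists do not share a scale, so percentiles and scaled depth were compared.

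Fragments at a summit were recovered from fold and p-value (within 0.01 of −log10 p for at least 99.403% of peaks in each list), and the lowest background served as mean depth. Genes came from GENCODE M21 (basic), and 16234 CpG islands were computed on GRCm38.p6 (length from 200 bp, GC content from 50%, CpG observed/expected from 0.6). The scripts (Python 3.11.15, pandas 2.3.3, scipy 1.17.1) were tested on simulated data. Differences of group means were tested by exact permutation with Benjamini-Hochberg adjustment over 13196 genes. The labels do not say that replicates were separate animals, so p-values measure only the spread between these libraries. Named genes were those with a promoter peak in all 4 lists (none), the 8 highest in mean percentile, up to 8 separated genes per direction, the 8 with most gene body regions, the top gene of each family, and members of the gene lists. Genes named outside this rule were chosen after their values were seen. Results of some genes that these rules name are not reported here. The genes and lists were chosen with earlier results of these data known. Alternatives tried were 1 kb promoters, any overlap, −log10 q of at least 5, equal-size lists (7037 peaks), no repeat-masked peaks, mid-ranks for genes without a peak, each library left out, distal body peaks and a replicate block.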

Additional observations from a re-analysis of the deposited data

How the results depend on the processing

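The exact test could not pass its threshold under any setting, so only sizes and directions were compared. For channel genes with a promoter peak, the cKO minus Ctrl difference of 17.5 genes became 11.5 with −log10 q of at least 5 and 2.5 with equal-size lists, and it ran from -19.5 (without Ctrl 2) to 54.5 (without Ctrl 1) when 1 library was left out. For separated channel genes, the net count of 19 became 11 with −log10 q of at least 5, 4 with equal-size lists, 11 when genes lacking a peak took the mid-rank (19 higher, 8 lower) and 0 with scaled depth, a measure chosen after seeing the data. Leaving out 1 library gave -4 (without Ctrl 2) to 43 (without cKO 1). For the median promoter percentile, the difference of 0.014 became -0.041 with 1 kb promoters, -7.98 with mid-ranks, 41.3 with equal-size lists, -0.071 when only peaks nearest to the gene's own TSS were counted (also chosen after seeing the data), and -26.9 to 26.9 when 1 library was left out. For gene body peaks, the difference of 39.5 became -2 with equal-size lists and 26 for distal peaks, and it ran from -115.5 (without Ctrl 2) to 194.5 (without Ctrl 1). The cause of these shifts was not tested. The percentile differences of Kcnh8, Cacna1c, Scn3b, Cacnb2, Kcna3, Cacnb4 and Cacng7 reversed under none of the 12 alternatives run for each. All of these except Cacna1c and Scn3b came to 0 in at least 1. With 1 library left out, no reversal was possible, because these genes were picked for cKO percentiles above both Ctrl percentiles. A replicate block also leaves each of these differences unchanged by construction. These alternatives therefore say nothing about stability of direction. The labels give both groups the replicate numbers 1 and 2. With these as a replicate block, the paired net count was 31 genes, against 19 without it, and the differences in genes with a promoter peak (17.5), in median percentile (0.014) and in gene body peaks (39.5) stayed as they were by construction. Over 13196 genes, the deviations of same-numbered libraries correlated at 0.053, and over the 79 channel genes with a promoter peak at 0.299, but nothing in the labels says that the numbers pair samples. With few fragments at most channel promoters, a missing call in cKO 1 or Ctrl 2 does not show closed chromatin.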
